A study of Mus musculus with 81 samples.

Results

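Border macrophages are the resident macrophages of the meninges, the perivascular spaces and the choroid plexus, and they share an origin and many genes with microglia, the macrophages of the brain tissue itself. They are told apart from microglia by scavenger and uptake receptors and by a few secreted proteins, most of which microglia of the healthy brain carry at low levels or not at all. A sort of microglia can hold some border macrophages, and microglia can themselves express some of these genes. 8 such marker genes were followed, chosen by name out of the 25124 genes of each count table. They are Mrc1 (the mannose receptor), Cd163 (a scavenger receptor for haemoglobin bound to haptoglobin), F13a1 (the A subunit of coagulation factor XIII), Cbr2 (a carbonyl reductase), Lyve1 (a hyaluronan receptor), Pf4 (a chemokine first known from platelets), Folr2 (a folate receptor) and Ms4a7 (a membrane protein of the MS4A family). All 8 were measured in every table, and all 8 passed the filter on low counts in each of the 5 fits.

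The libraries came from microglia sorted by flow cytometry from adult male C57BL/6 mice, with 2 to 6 brains pooled per sort, and polyadenylated RNA was counted per gene in 81 libraries of 28 groups. Mice ate chow with 0.2% cuprizone, which causes loss of myelin in the brain, over 4, 5 or 6 weeks, or were kept on regular diet (baseline). The tested genotypes were Trem2KO (the allele is not given in the labels), Cx3cr1CreERT2/WT::Mef2afl/fl (Mef2aKO) and Cx3cr1CreERT2/WT::Egr2fl/fl (Egr2KO), against WT mice for the first and Cx3cr1CreERT2/WT mice (Cre) for the other two. Those Cre mice carry the same inducible driver, which acts in every cell that expresses Cx3cr1, border macrophages included. Baseline and whole 5-week cells were gated as low for CD44, CD45 and CD11b. The cuprizone gates are labelled only by CD229, CD11c and, at 5 weeks, Clec7a. CD229pos cells are CD229 positive and CD11c negative (Clec7a positive as well at 5 weeks), CD11cpos cells are positive for both, Clec7apos cells are Clec7a positive and CD229 negative, and CD229neg or Clec7aneg cells are negative for each marker their label names. Baseline Mef2aKO cells were also split into CD229pos and CD229neg. Each group had 2 to 4 libraries, the 3 Cre baseline libraries serve the 5-week, the 6-week and the baseline gate comparisons, and the WT baseline libraries are the same in both 4-week tables.

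Library totals were 4387075 to 13972985 counts, so 3 counts correspond to between 0.215 and 0.684 CPM (counts scaled to a library total of 1000000). Trem2 checks the Trem2KO label: it averaged 105.8 CPM in the Trem2KO baseline libraries, against 386.9 CPM in those of WT. Gene-level counts of Mef2a and Egr2 also hold reads outside the floxed part and do not check their deletion. Microglial identity genes were abundant in every library, with a sum of 7145 to 16540 CPM over 13 genes. The monocyte markers summed to 6.39 to 34.9 CPM per library. Among them Ccr2 averaged 9.65 CPM and Vcan 1.65 CPM, both with reads in every library, while Ly6c2, Chil3, Hp, F10 and Ms4a3 averaged under 0.1 CPM. Of 5 T and NK cell markers found in the tables all 5 did. Platelet markers bear on Pf4 and lymphatic markers on Lyve1. Ppbp and Gp6 of the platelet list, and Flt4, Ccl21a and Reln of the lymphatic list, averaged under 0.1 CPM, although Gp1ba averaged 17.8 CPM and Prox1 44.9 CPM. In bulk RNA, fewer cells of a type and less RNA per cell cannot be told apart. In the main fits each p-value sets a group difference against the spread between libraries, estimated over all groups of an experiment. The labels do not say whether libraries of a group came from separate cohorts, so that spread is one between these libraries. Overlap between groups is given for the members alone, with no share of all genes beside it. Counts of members without overlap are therefore a description only.

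Per library, Mrc1 ranged most in absolute terms and was never absent. Its level was 7.00 CPM at the lowest, 28.2 CPM at the median and 199 CPM at the highest. Cd163 had 0, 4.33 and 40.6 CPM at the same points, F13a1 0, 6.20 and 66.2 CPM, Cbr2 0, 2.01 and 15.5 CPM, and Lyve1 0, 1.53 and 20.0 CPM. The top library of each of these 5 genes was replicate 1 or 2 of the 6-week Cre CD229pos gate. Pf4 reached 13.3 CPM in a 4-week WT CD229pos library, Folr2 45.2 CPM in a 5-week Cre CD229pos library and Ms4a7 31.3 CPM in a 5-week Mef2aKO CD11cpos library. No read was found in 3 libraries for Cd163, Pf4 and Ms4a7 each, in 2 for F13a1 and Cbr2 each and in 7 for Lyve1, while Mrc1 and Folr2 had reads in all 81 libraries. For length-scaled levels, counts were divided by transcript length and then rescaled to the same total in every library, so they are not CPM per kb. On that scale the highest of the members in 5-week Cre CD229pos cells was Folr2, at 109.9. Pf4 had 47.9, Mrc1 23.1 and Cd163 6.76 in the same cells. At Cre baseline the order by length-scaled level was Mrc1 (39.5), Pf4 (18.9), F13a1 (12.8), Cbr2 (12.3), Ms4a7 (11.9), Folr2 (11.4), Cd163 (7.01) and Lyve1 (6.95), and neighbours in that order were not tested against each other, with 1 of the 3 libraries low in most of these genes.

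**Figure D1:**
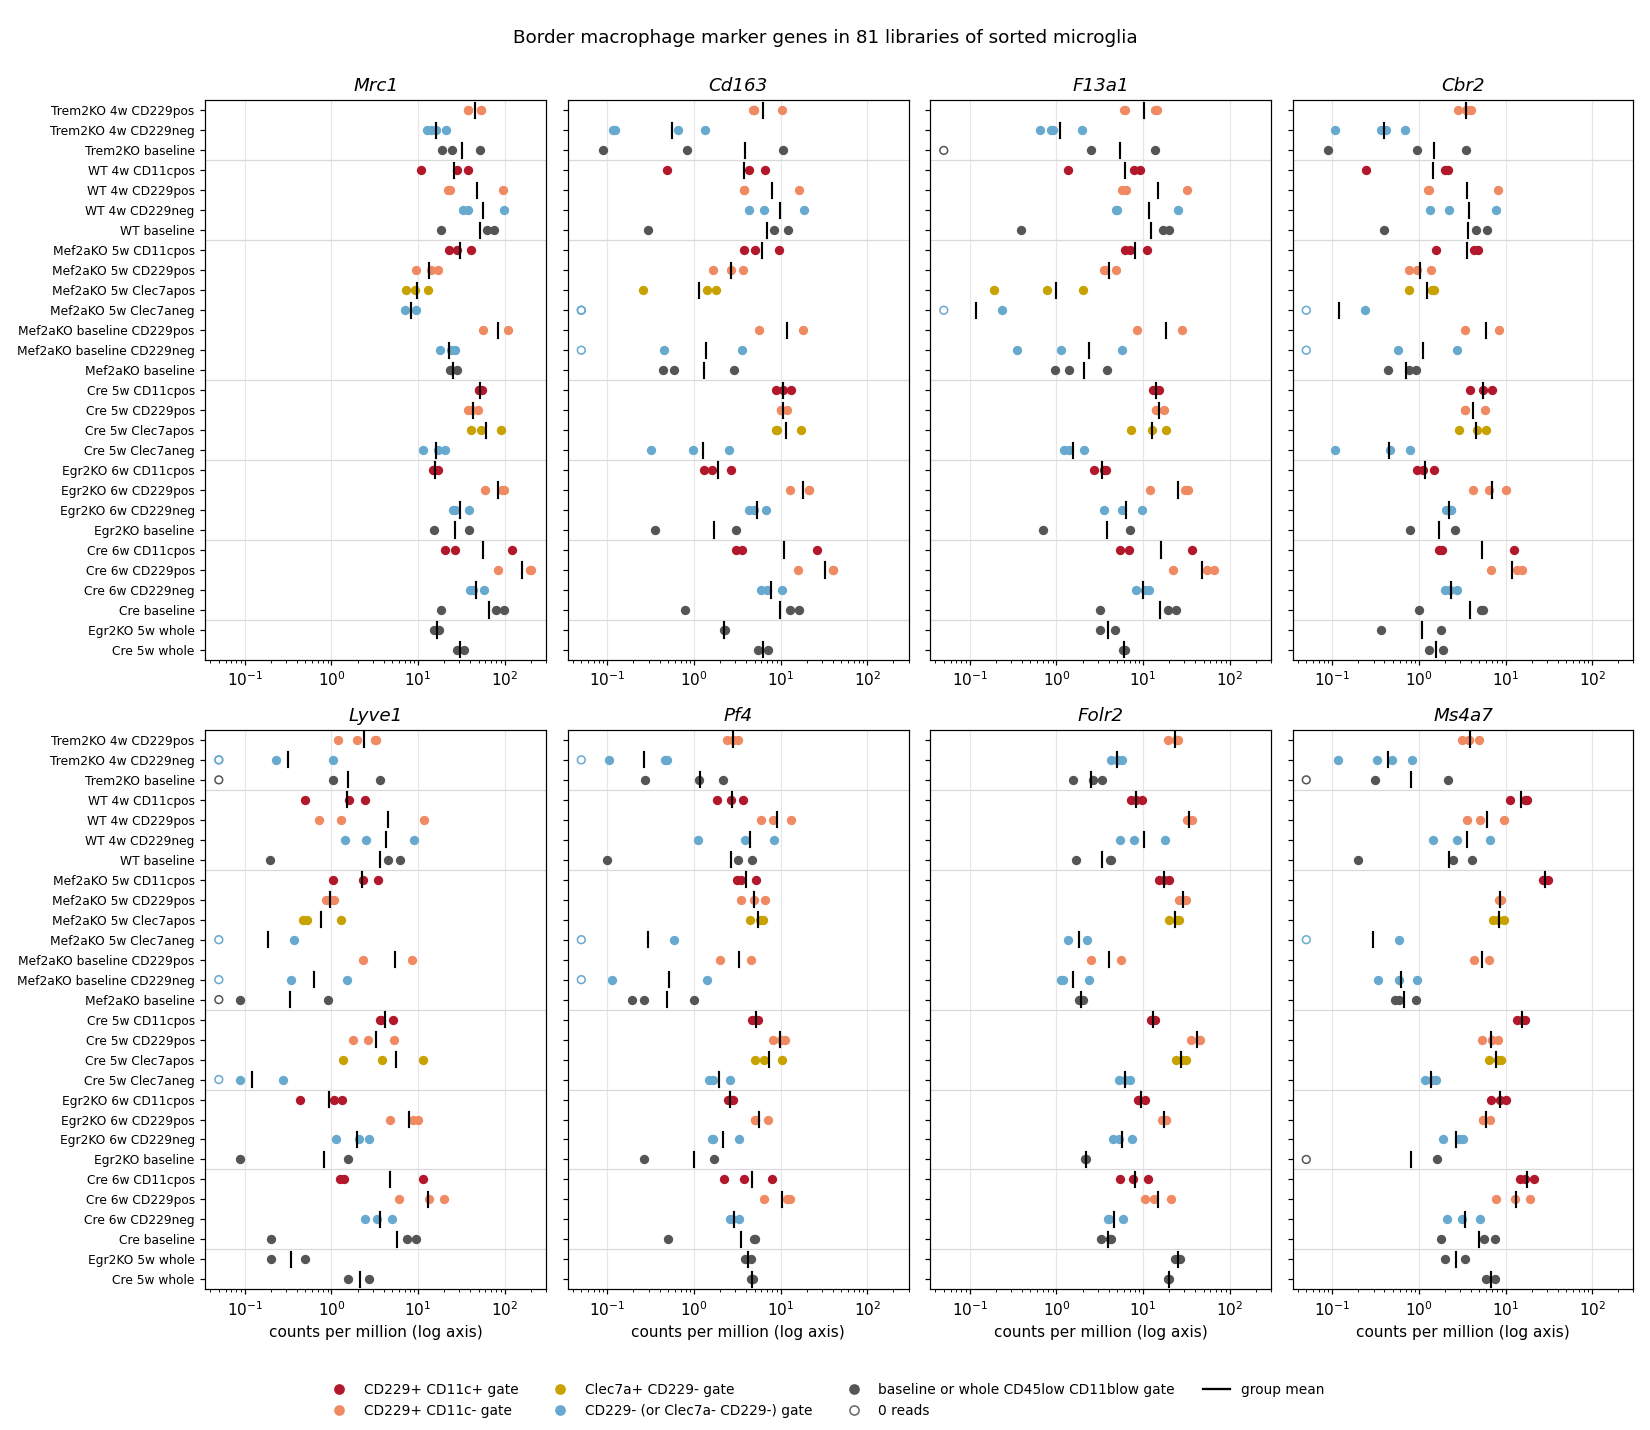
Level of each of the 8 marker genes in all 81 libraries, in CPM on a log axis, with 1 row per group, 1 point per library coloured by gate, open points for 0 reads and a bar for the group mean. Mrc1, Cd163, F13a1, Cbr2 and Lyve1 scatter widely inside groups, while Folr2 is tight inside groups and highest in CD229pos and Clec7apos gates of the 4- and 5-week cuprizone mice, and Ms4a7 is highest in CD11cpos gates.

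Replicate libraries of one group often differed widely in these genes. Cd163 had 0.295, 8.45 and 12.04 CPM in the 3 WT baseline libraries and 12.8, 16.1 and 0.794 CPM in the 3 Cre baseline libraries. One library of each baseline control was therefore low. Mrc1 in the same libraries was 18.3, 75.0 and 62.7 CPM for WT and 99.2, 79.8 and 18.3 CPM for Cre, with the same library low each time. Among the Trem2KO baseline libraries Cd163 was 0.836, 0.0901 and 10.6 CPM, and only replicate 3 was high. The highest library was over 5 times the lowest in 10 of 28 groups for Cd163, 9 for F13a1, 9 for Cbr2, 7 for Lyve1, 6 for Pf4, 2 for Mrc1, 2 for Ms4a7 and 0 for Folr2, counting only groups with reads in each library. The widest such ratio was 118-fold for Cd163 (Trem2KO baseline) and 3.26-fold for Folr2 (4-week WT CD229neg).

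Mrc1, Cd163, F13a1, Cbr2 and Lyve1 rose and fell together from library to library. After each group's mean was taken away, the deviations of the 81 libraries in log2(CPM + 1) had Pearson r of 0.84 to 0.92 over the 10 pairs of these 5 genes, and over the means of the 28 groups r was 0.91 to 0.98. Pf4 followed less closely within groups, with r of 0.63 to 0.79 against the other 7 members. Ms4a7 had within-group r of 0.61 to 0.82 and Folr2 0.55 to 0.64. The split was wider between groups. Folr2 and Mrc1 had r of 0.14 over group means and 0.62 within groups, and Ms4a7 and Mrc1 had 0.34 and 0.79. So the libraries that were high in the 5 genes also had more Folr2 and Ms4a7 than others of their group, but the group means of Folr2 and Ms4a7 were ordered by gate. These r describe the libraries. Libraries share gates and controls and may share pools, and r carries no p here.

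**Figure D2:**
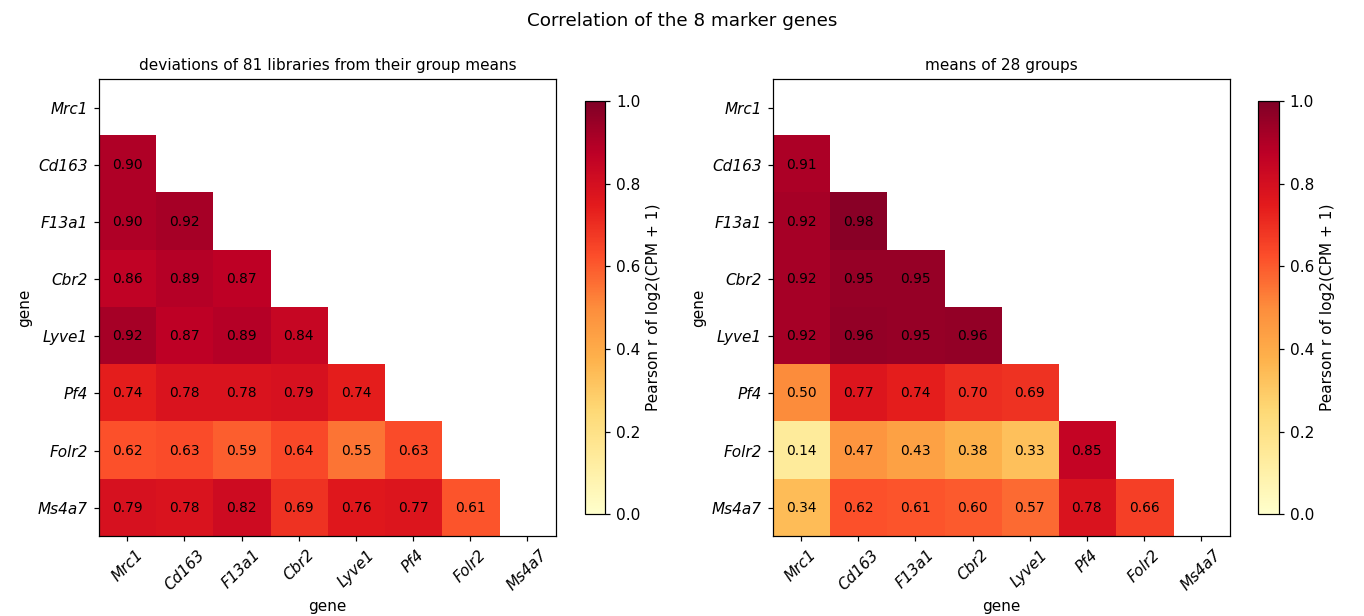
Pearson r between the 8 genes on log2(CPM + 1), on the left for the deviations of 81 libraries from their group means and on the right for the means of 28 groups. Pairs among Mrc1, Cd163, F13a1, Cbr2 and Lyve1 lie between 0.84 and 0.98 in both panels, and pairs with Folr2 fall to between 0.14 and 0.85 over group means.

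Where reads sufficed, the proportions among Cd163, F13a1, Cbr2 and Lyve1 varied less than their sum. In the 46 libraries with at least 100 reads of these 4 genes together, F13a1 made up 31.3% to 54.0% of the 4-gene reads (median 42.5%), Cd163 19.4% to 44.0% (31.0%), Cbr2 6.83% to 24.0% (12.8%) and Lyve1 6.02% to 21.6% (11.96%). The sum of the 4 genes, called the 4-gene level here, ran from 8.57 CPM to 134 CPM in those 46 libraries. Over all 81 libraries it ran from 0.180 CPM in a Trem2KO baseline library to 134 CPM in a 6-week Cre CD229pos library. This set of 4 was chosen after the values were seen, so the steadier proportions are in part built into that choice. On a straight line against Cd163 over the 81 libraries, F13a1 gained 1.44 CPM per CPM of Cd163 with an intercept of -0.0481 CPM (r 0.98), and Lyve1 0.440 CPM with an intercept of -0.0994 CPM (r 0.94). Cbr2 gained 0.375 CPM with an intercept of 0.406 CPM (r 0.96). Mrc1 gained 4.45 CPM per CPM of Cd163 from an intercept of 10.8 CPM (r 0.97), so it kept a level where Cd163 was near 0. Folr2 had an intercept of 10.9 CPM with r of 0.24, and Ms4a7 one of 4.43 CPM with r of 0.37.

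**Figure D3:**
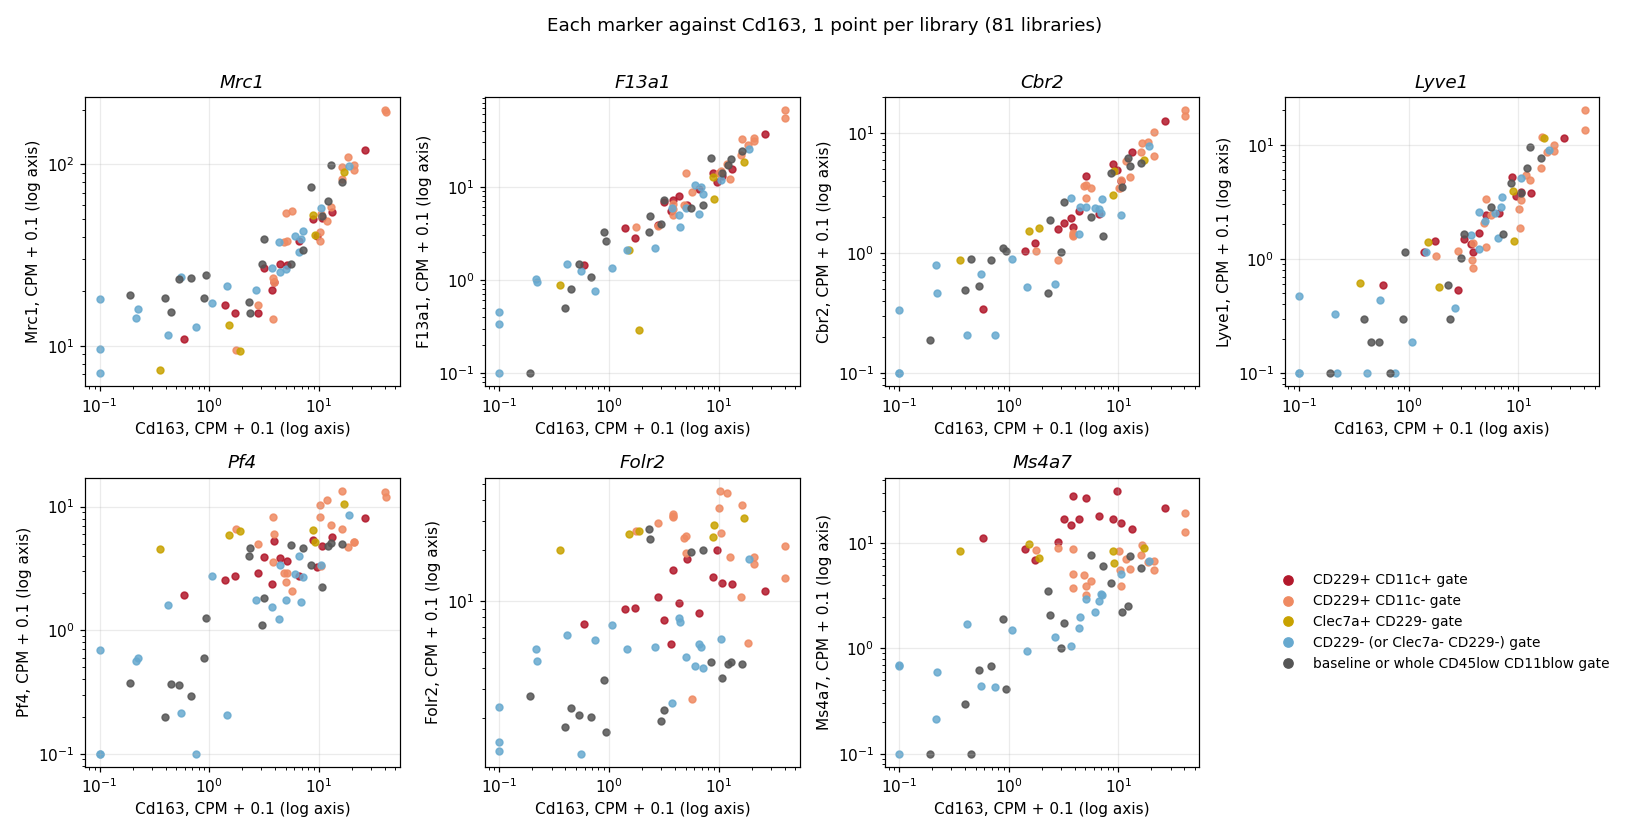
Each of the other 7 markers against Cd163, both as CPM + 0.1 on log axes, 1 point per library coloured by gate. F13a1, Cbr2 and Lyve1 lie along 1 line whatever the gate, Mrc1 flattens at low Cd163, and Folr2 and Ms4a7 separate by gate at the same Cd163 level.

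The promoters of a pair of genes that moved together (Mrc1 and Cd163) and of the pair that followed the gates (Folr2 and Ms4a7) are shown from RefSeq on GRCm38.p6. Each holds 250 bases before and 50 bases from the gene's start in RefSeq, written 5′ to 3′ on the gene's strand. RefSeq promoters were matched for 7 of the 8 genes, all but Lyve1. Capitals mark matches to GAGGAAG (the core bound by the myeloid factor PU.1), GTGGGNG (EGR) or the MEF2 motif (CTA and TAG with 4 bases between), on either strand, with no overlap between matches here.
Mrc1 (chr2:14229164-14229463, plus strand): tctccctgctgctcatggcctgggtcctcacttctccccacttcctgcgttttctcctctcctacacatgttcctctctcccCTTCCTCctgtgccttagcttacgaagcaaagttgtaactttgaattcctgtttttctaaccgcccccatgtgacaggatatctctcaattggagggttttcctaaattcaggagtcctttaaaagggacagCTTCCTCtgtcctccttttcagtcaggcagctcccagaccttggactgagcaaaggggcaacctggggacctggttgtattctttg
Cd163 (chr6:124304401-124304700, plus strand): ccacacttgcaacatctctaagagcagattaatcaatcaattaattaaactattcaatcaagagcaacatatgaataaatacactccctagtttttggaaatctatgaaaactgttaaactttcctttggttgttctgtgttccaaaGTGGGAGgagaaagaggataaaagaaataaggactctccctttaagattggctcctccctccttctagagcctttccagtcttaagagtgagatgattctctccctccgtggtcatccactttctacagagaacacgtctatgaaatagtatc
Folr2 (chr7:101845282-101845581, minus strand): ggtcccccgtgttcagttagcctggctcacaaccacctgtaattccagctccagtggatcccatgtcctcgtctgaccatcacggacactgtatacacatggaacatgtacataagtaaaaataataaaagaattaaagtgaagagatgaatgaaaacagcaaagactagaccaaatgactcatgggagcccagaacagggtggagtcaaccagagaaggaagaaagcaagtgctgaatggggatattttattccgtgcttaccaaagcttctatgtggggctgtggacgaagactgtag
Ms4a7 (chr19:11336097-11336396, minus strand): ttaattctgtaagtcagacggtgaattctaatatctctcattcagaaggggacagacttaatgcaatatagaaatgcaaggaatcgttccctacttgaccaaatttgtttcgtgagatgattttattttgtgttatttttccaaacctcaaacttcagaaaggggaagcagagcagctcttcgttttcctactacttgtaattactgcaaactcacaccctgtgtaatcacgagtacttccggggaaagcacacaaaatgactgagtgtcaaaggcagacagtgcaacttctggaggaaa
Mrc1 holds the PU.1 letters at positions -168 to -162 and -36 to -30, counted with 0 at the first transcribed base, and Cd163 holds the EGR letters at -103 to -97. F13a1, Cbr2 and Pf4 each had 1 PU.1 match, F13a1 also had 2 EGR matches and Cbr2 1, and the MEF2 letters were in none of the 7. Over all 32851 promoters of the same length, 13.6% held the PU.1 letters, 31.6% the EGR letters and 3.69% the MEF2 letters.

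The genes whose levels were most like those of Cd163 over the 81 libraries, by Pearson r of log2(CPM + 1), were Clec10a (a lectin of border macrophages, r 0.921), Cd93 (0.914) and Cd38 (0.907). Cd93 was nearest to Mrc1 (0.897) and F13a1 (0.916), and Cd209f, a further lectin of border macrophages, to Lyve1 (0.904). Ifi203 was nearest to Cbr2 (0.892). Pf4 was most like Dab2 (0.866), an endocytic adaptor at 113 CPM on average. Folr2 was most like Gcnt2 (0.946), Ifitm2 (0.925) and Psat1 (0.921, an enzyme of serine synthesis), none of which is on the lists of border macrophage genes. Ms4a7 was most like its family member Ms4a4a (0.931). The within-group deviations of the 4-gene level had r of 0.87 with Clec10a, 0.77 with Cd38 and 0.77 with Cd209f, genes already picked as most like members. They had r of 0.11 with Stab1 and 0.06 with Slc40a1, border macrophage genes that these microglia carried at 1193 and 194 CPM on average. Other abundant genes of that list followed more closely, with r of 0.75 for Dab2, 0.67 for Siglec1 (150 CPM) and 0.60 for Colec12 (65.0 CPM). The sum over the list of 25 border macrophage genes had r of 0.40. Outside that list, the summed MHC class II genes had a within-group r of 0.79 with the 4-gene level and the monocyte markers 0.63 (Ccr2 alone 0.62). The dendritic cell markers had 0.54 (Cd209a alone 0.76), the oligodendrocyte markers 0.36 and the microglial identity genes -0.20. Ccr2 and Cd209a were the highest of their lists. The other dendritic cell markers had r of -0.24 (Xcr1) to 0.28 (Flt3). The other monocyte markers with any read had r of -0.18 (F10) to 0.43 (Mgst1). The part of these genes in the members' levels was not tested.

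At 4 weeks of cuprizone, in the fit without a replicate block, Folr2 was the one member called between WT gates in each step of the sort. The 5 co-varying genes were not called in any step of that fit. With the replicate number as a block, 5 members were called in the CD229 step, co-varying genes among them. That count is given without the share of all genes called in the block fit. With the block, the number of all genes called moved past the limit stated further below in 12 of 27 comparisons. The added calls can therefore not be told from a general change in the number of calls. Folr2 had 5.45, 7.77 and 17.8 CPM in CD229neg cells, against 1.67, 4.22 and 4.112 CPM in WT baseline cells (log2 fold change 1.66 ± 0.31 SE, edgeR adjusted p = 0.000152). The groups do not overlap, and 18.8% of the 12647 genes tested were called higher. Folr2 rose further to 31.8, 33.0 and 37.0 CPM in CD229pos cells, over 1.74 ± 0.25 (adjusted p = 2.21e-06), with 24.6% of genes called higher. In CD11cpos cells it was 9.61, 8.37 and 7.20 CPM, a log2 fold change of -2.03 ± 0.26 against CD229pos cells (edgeR adjusted p = 1.6e-06), with no overlap. Pf4 fell in that step too, to 3.73, 2.65 and 1.83 CPM in CD11cpos against 8.11, 5.96 and 13.3 CPM in CD229pos cells (-1.75 ± 0.57, adjusted p = 0.0263), and 11.5% of genes were called lower. Ms4a7 was 16.7, 17.8 and 11.1 CPM in CD11cpos and 5.02, 3.63 and 9.58 CPM in CD229pos cells, without overlap, and was not called (1.28 ± 0.49, adjusted p = 0.0565). Pf4 was no longer called in this step without replicate 2 of CD11cpos (adjusted p = 0.0895) or its replicate 3 (0.0924) or replicate 3 of CD229pos (0.153), and without replicate 3 of CD229neg 3 members were higher in CD229pos than CD229neg cells (Pf4, Folr2 and Ms4a7). Mrc1 was 23.6, 22.4 and 96.3 CPM in CD229pos and 33.0, 37.4 and 97.9 CPM in CD229neg cells, with replicate 3 high in both gates.

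Trem2KO CD229neg cells had less of all 8 genes than WT CD229neg cells at 4 weeks, and 7 of the 8 calls were lost without 1 WT library. Cd163 had 1.36, 0.651, 0.115 and 0.123 CPM in Trem2KO against 6.51, 4.28 and 18.9 CPM in WT cells (log2 fold change -4.07 ± 1.04, edgeR adjusted p = 0.00629). Pf4 had 0.104, 0, 0.460 and 0.491 CPM in Trem2KO against 3.91, 1.13 and 8.43 CPM in WT (-4.10 ± 0.82, adjusted p = 0.000666), and Folr2 5.11, 5.75, 5.06 and 4.29 CPM against 5.45, 7.77 and 17.8 CPM (-1.05 ± 0.28, adjusted p = 0.00763). Folr2 overlaps between the genotypes and the other 7 genes do not. Of all genes tested, 13.1% were called lower. Without replicate 3 of the WT cells, which held 60.6 CPM of the 4-gene level against 15.2 and 12.95 CPM in the other libraries, Pf4 alone was called (-3.27). The other folds then kept their sign, at -1.17 for Mrc1, -3.20 for Cd163, -2.15 for F13a1, -2.18 for Cbr2, -2.53 for Lyve1, -0.42 for Folr2 and -2.22 for Ms4a7, with adjusted p of 0.084 to 0.313. In CD229pos cells 2 members were lower in Trem2KO. Pf4 had 3.21, 2.38, 2.80 and 2.79 CPM against 8.11, 5.96 and 13.3 CPM in WT (-1.78 ± 0.52, adjusted p = 0.00554), and Folr2 25.2, 19.2, 23.7 and 24.4 CPM against 31.8, 33.0 and 37.0 CPM (-0.62 ± 0.22, edgeR adjusted p = 0.0176), neither with overlap. There 26.5% of genes were called lower. The number called was 0 without replicate 3 of WT CD229pos and with DESeq2, and 1 without replicate 2 of Trem2KO CD229pos. At baseline none of the 8 was called between Trem2KO and WT with edgeR, none had an unadjusted p under 0.05 (7.65% of genes did), and 0.577% of genes were called.

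Between Trem2KO gates, 7 of 8 members were higher in CD229pos than CD229neg cells, where 14.8% of genes were called higher. Mrc1 had 53.0, 53.8, 37.5 and 37.7 CPM in CD229pos against 21.2, 12.7, 14.1 and 15.9 CPM in CD229neg (1.49 ± 0.46, edgeR adjusted p = 0.0162), and Folr2 25.2, 19.2, 23.7 and 24.4 CPM against 5.11, 5.75, 5.06 and 4.29 CPM (2.17 ± 0.24, adjusted p = 9.71e-08). No member overlaps between the gates, a count given without the share of all genes that do not overlap. Lyve1 was not called (adjusted p = 0.0683). Against Trem2KO baseline, CD229neg cells had 0 members called, where 7.28% of genes were called in either direction. At an unadjusted p under 0.05 were 3 members and 18.9% of genes. Folr2 there was 1.57, 2.61 and 3.36 CPM at baseline, below each CD229neg library (1.00 ± 0.34, adjusted p = 0.0796). No member was called for a difference of the CD229 step between Trem2KO and WT in edgeR's interaction term, where 14.8% of genes were called in either direction. The term for Mrc1 was 1.68 ± 0.66 (adjusted p = 0.0904), 6 of 8 members and 28% of genes had an unadjusted p under 0.05, and without replicate 3 of WT CD229pos 4 members were called (Mrc1, Cd163, Cbr2 and Lyve1).

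At 5 weeks in Cre mice the 5 co-varying genes were scarce in the cells negative for every gate marker and higher in Clec7apos cells. Cd163 had 2.56, 0.318 and 0.967 CPM in Clec7aneg cells, against 12.8, 16.1 and 0.794 CPM at baseline (-2.93 ± 0.63, edgeR adjusted p = 0.000577), with overlap through the low baseline library. Mrc1 had 20.2, 11.4 and 17.1 CPM against 99.2, 79.8 and 18.3 CPM (-2.04 ± 0.33, adjusted p = 1.67e-05). F13a1, Cbr2, Lyve1 and Ms4a7 fell as well, while Folr2 rose to 5.21, 6.15 and 7.12 CPM against 4.26, 4.12 and 3.28 CPM (0.64 ± 0.18, adjusted p = 0.00704). In all, 7 of 8 members were called, where 28.8% of the 13204 genes tested were called in either direction. Folr2 missed the threshold without replicate 3 of Clec7aneg (adjusted p = 0.0583) and in the fit of the compared groups only (0.0531). In Clec7apos cells all 8 were higher than in Clec7aneg cells, with no overlap for any member, and 20.9% of genes were called higher. Mrc1 had 90.7, 52.8 and 40.6 CPM (1.98 ± 0.34, adjusted p = 1.67e-05), Ms4a7 8.80, 8.22 and 6.38 CPM against 1.19, 1.59 and 1.41 CPM (2.56 ± 0.33, adjusted p = 1.94e-07), and Folr2 30.9, 24.0 and 28.2 CPM (2.22 ± 0.14, edgeR adjusted p = 4.05e-14).

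Further along the 5-week sort Folr2 was called in both steps and Ms4a7 in the step into CD11cpos cells. CD229pos cells had 44.1, 35.6 and 45.2 CPM of Folr2, above each Clec7apos library (0.59 ± 0.12, edgeR adjusted p = 0.00181), where 2.1% of genes were called higher. In CD11cpos cells Folr2 was 12.5, 12.7 and 13.7 CPM (-1.69 ± 0.13 against CD229pos cells, adjusted p = 1.43e-11). Ms4a7 was 13.6, 15.5 and 16.8 CPM in CD11cpos against 6.96, 8.27 and 5.39 CPM in CD229pos cells (1.16 ± 0.24, adjusted p = 0.000836). Neither gene overlaps, and 14.1% of genes were called in either direction. Pf4 was 5.55, 4.69 and 5.27 CPM in CD11cpos against 11.2, 10.2 and 8.09 CPM in CD229pos cells, without overlap, and missed the threshold (-0.92 ± 0.37, edgeR adjusted p = 0.0937). Mrc1 was 54.3, 50.8 and 50.2 CPM in CD11cpos against 48.8, 42.4 and 37.8 CPM in CD229pos cells, also without overlap (0.27 ± 0.31, adjusted p = 0.664). Cd163 was 13.1, 10.6 and 8.75 CPM in CD11cpos against 11.7, 10.1 and 10.2 CPM in CD229pos cells, with overlap (0.01 ± 0.48, adjusted p = 0.991).

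At 6 weeks the Cre CD229pos cells held the most of the 5 co-varying genes of any group. Cd163 had 40.6, 40.4 and 16.1 CPM in CD229pos against 7.04, 10.5 and 5.99 CPM in CD229neg cells (2.04 ± 0.59, edgeR adjusted p = 0.0174), and Mrc1 195, 199 and 83.4 CPM against 42.9, 57.6 and 40.1 CPM (1.76 ± 0.48, adjusted p = 0.0103). Folr2 had 13.5, 21.2 and 10.5 CPM against 3.91, 5.81 and 4.02 CPM (1.70 ± 0.24, adjusted p = 1.05e-05). In all 7 of 8 members were called higher, all but Lyve1, with no overlap for any member, and 10.7% of the 13187 genes tested were called higher. In this step alone, of those with 3 or more pairs, every same-numbered pair had a residual correlation over 0.1. With the replicate number as a block 8 were called, given here without the share of all genes called. Without replicate 2 of CD229pos 4 were (Cbr2, Pf4, Folr2 and Ms4a7). The summed MHC class II genes were 391 to 631 CPM in these CD229pos libraries and 137 to 229 CPM in CD229neg libraries, and the monocyte markers 24.7 to 33.1 CPM in CD229pos and 8.21 to 15.9 CPM in CD229neg libraries; their part in the step was not tested. Against Cre baseline, CD229neg cells at 6 weeks had 0 members called with edgeR and 0 at an unadjusted p under 0.05, against 17.2% of genes, and 5.85% of genes were called in either direction.

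CD11cpos cells at 6 weeks split by library. Cd163 was 3.61, 3.10 and 26.3 CPM there against 40.6, 40.4 and 16.1 CPM in CD229pos cells, and Mrc1 20.2, 27.0 and 121 CPM against 195, 199 and 83.4 CPM, so replicate 3 was high in the first gate and low in the second. Mrc1 was called lower (-1.51 ± 0.47, edgeR adjusted p = 0.0248) and so was Folr2, at 5.48, 7.59 and 11.3 CPM against 13.5, 21.2 and 10.5 CPM (-0.86 ± 0.22, adjusted p = 0.0072), both with overlap, where 8.53% of genes were called lower. The count was 7 without replicate 3 of CD11cpos, 5 without replicate 3 of CD229pos, 0 without replicate 2 of CD229pos or replicate 1 of CD11cpos, and 1 (Folr2) without replicate 1 of CD229pos or replicate 2 of CD11cpos. Ms4a7 was 14.7, 17.0 and 21.4 CPM in CD11cpos and 12.7, 19.3 and 7.69 CPM in CD229pos cells (0.43 ± 0.36, adjusted p = 0.459).

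Deletion of Mef2a went with lower levels of all 8 genes at baseline, against a control group in which 1 of 3 libraries was itself low. Ms4a7 had 0.523, 0.583 and 0.915 CPM in Mef2aKO against 7.48, 5.66 and 1.79 CPM in Cre cells (-2.86 ± 0.39, edgeR adjusted p = 9.93e-06), without overlap. Cd163 had 0.436, 0.583 and 2.91 CPM against 12.8, 16.1 and 0.794 CPM (-2.87 ± 0.62, adjusted p = 0.00393) and overlaps. Folr2 had 2.01, 1.94 and 1.83 CPM against 4.26, 4.12 and 3.28 CPM (-1.01 ± 0.22, adjusted p = 0.00415) and does not. Of all genes, 2.08% were called lower. In the fit of these groups alone 1 member was called (Ms4a7); there the spread was estimated from 6 libraries and not from 29.

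At 5 weeks the Mef2aKO cells had less of all 5 co-varying genes in the Clec7apos gate and of 4 of them in the CD229pos gate, where Lyve1 was not called (adjusted p = 0.275), and Pf4 and Ms4a7 were called in neither. In Clec7apos cells Mrc1 had 9.25, 7.25 and 13.01 CPM in Mef2aKO against 90.7, 52.8 and 40.6 CPM in Cre cells (-2.65 ± 0.37, edgeR adjusted p = 1.27e-05), and Cd163 1.79, 0.259 and 1.42 CPM against 17.0, 8.79 and 9.06 CPM (-3.26 ± 0.66, adjusted p = 0.00203). F13a1, Cbr2 and Lyve1 fell too, so 5 of 8 were lower where 2.23% of genes were, and none of the 5 overlaps. Ms4a7 was 7.17, 8.28 and 9.70 CPM against 8.80, 8.22 and 6.38 CPM (0.08 ± 0.26, adjusted p = 0.948), and Folr2 25.95, 19.9 and 24.96 CPM against 30.9, 24.0 and 28.2 CPM (-0.22 ± 0.12, adjusted p = 0.48). In CD229pos cells 5 of 8 were lower (Mrc1, Cd163, F13a1, Cbr2 and Folr2), where 2.81% of genes were. Mrc1 had 16.8, 9.38 and 13.9 CPM against 48.8, 42.4 and 37.8 CPM (-1.65 ± 0.36, adjusted p = 0.00319) and Folr2 29.2, 26.1 and 31.4 CPM against 44.1, 35.6 and 45.2 CPM (-0.50 ± 0.12, edgeR adjusted p = 0.00634), both without overlap. In Clec7apos cells 3 were called without replicate 1 of Cre or replicate 1 or 2 of Mef2aKO, always Mrc1, Cd163 and F13a1. In CD229pos cells 3 were called without replicate 1 of Cre, and 2 without replicate 1 or 2 of Mef2aKO, Mrc1 among them each time.

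In the triple-positive and triple-negative gates 1 member each was called between Mef2aKO and Cre cells, and no difference between gates was tested. In CD11cpos cells Ms4a7 was higher, at 26.8, 27.8 and 31.3 CPM in Mef2aKO against 13.6, 15.5 and 16.8 CPM in Cre cells (0.87 ± 0.21, edgeR adjusted p = 0.0105), without overlap, where 2.34% of genes were called higher. No member was called without replicate 1 of Cre (Ms4a7 adjusted p = 0.079) or replicate 3 of Mef2aKO (0.0569). Mrc1 there was 27.9, 22.5 and 40.3 CPM against 54.3, 50.8 and 50.2 CPM (-0.79 ± 0.32, adjusted p = 0.197). In Clec7aneg cells Folr2 was lower, at 1.35 and 2.25 CPM in Mef2aKO against 5.21, 6.15 and 7.12 CPM in Cre cells (-1.73 ± 0.25, adjusted p = 1.36e-05), where 3.91% of genes were called lower. Cd163 had no read in either Mef2aKO library, against 2.56, 0.318 and 0.967 CPM in Cre cells, which rest on 28, 3 and 11 reads, and no fold is given. Without replicate 2 of Mef2aKO 2 members were called there (Folr2 and Ms4a7). Baseline Mef2aKO CD229pos cells had more Ms4a7 than CD229neg cells, at 4.31 and 6.51 CPM against 0.340, 0.588 and 0.955 CPM (3.08 ± 0.56, edgeR adjusted p = 0.0472), where 0.135% of genes were called higher. All 8 members were higher there in each CD229pos library than in each CD229neg library, with Mrc1 at 55.7 and 109.9 CPM against 24.0, 17.98 and 26.6 CPM and all 8 at an unadjusted p under 0.05, as were 5.07% of genes. With any of the 5 libraries left out (replicates 1 and 2 of CD229pos, replicates 1, 2 and 3 of CD229neg), 0 were called in that step.

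No member was called between Egr2KO and Cre cells at baseline or in any 6-week gate with edgeR's test, although Egr2KO values were often the lower. In CD11cpos cells Mrc1 was 16.8, 15.0 and 15.1 CPM in Egr2KO against 20.2, 27.0 and 121 CPM in Cre cells (-1.83 ± 0.54, edgeR adjusted p = 0.226), and Ms4a7 8.70, 6.81 and 10.2 CPM against 14.7, 17.0 and 21.4 CPM (-1.03 ± 0.37, adjusted p = 0.375). Neither overlaps, and 0.25% of genes were called in either direction. An unadjusted p under 0.05 was found for 6 of 8 members and 9.05% of genes there, for 1 member and 16.5% of genes in CD229pos cells, and for 0 members and 7.86% of genes in CD229neg cells. In CD229pos cells 2.46% of genes were called, and in CD229neg cells 0.19%. Folr2 overlapped in the CD229pos gate, with 16.5, 18.3 and 18.2 CPM in Egr2KO and 13.5, 21.2 and 10.5 CPM in Cre CD229pos cells (0.27 ± 0.21, adjusted p = 0.556). At baseline 7 of 8 members and 6.34% of genes had an unadjusted p under 0.05, and 0.182% of genes were called. Every Egr2KO baseline library has the tag PE150 in its title and no Cre baseline library does. Genotype and tag cannot be told apart between these baseline groups. Replicates 2 and 3 of each 6-week gate carry the tag too. Without replicate 3 of Cre baseline, the low library, 3 were called (Cd163, Pf4 and Ms4a7), and without replicate 2 of Egr2KO baseline 1 was (Ms4a7). In the whole 5-week population, with 2 libraries a group, 2 of 8 were lower in Egr2KO where 0.622% of the 12387 genes tested were. Mrc1 had 17.5 and 15.2 CPM against 33.6 and 28.2 CPM in Cre cells (-0.98 ± 0.14, adjusted p = 0.00226), and Cd163 2.20 and 2.28 CPM against 7.10 and 5.49 CPM (-1.54 ± 0.31, edgeR adjusted p = 0.0324), both without overlap. Leaving out 1 of these 4 libraries gave 2 to 3 members called.

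The levels of Folr2 and Ms4a7 in genotypes whose gate steps were not tested are given as a description. In 5-week Mef2aKO mice Folr2 was 17.6, 15.2 and 20.0 CPM in CD11cpos and 29.2, 26.1 and 31.4 CPM in CD229pos cells, and Ms4a7 26.8, 27.8 and 31.3 CPM and 8.96, 8.43 and 8.70 CPM. In 6-week Egr2KO mice Folr2 was 8.82, 9.05 and 10.5 CPM in CD11cpos and 16.5, 18.3 and 18.2 CPM in CD229pos cells, and Ms4a7 8.70, 6.81 and 10.2 CPM and 5.50, 5.54 and 6.67 CPM.

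To see which differences remained at an equal level of the co-varying genes, the 4-gene level was added to each fit as a covariate, a choice made after the data were seen. The values for Mrc1, Pf4, Folr2 and Ms4a7 are then given at a matched amount of Cd163, F13a1, Cbr2 and Lyve1. Calls per gene are given without the share of all genes called in the covariate fits. With the covariate, the number of all genes called moved past the limit stated further below in 11 of 27 comparisons. Lost or kept calls therefore cannot be read as a trait of these genes. Mrc1 was called in 10 of 26 pair comparisons without the covariate (3 higher, 7 lower) and in 1 with it (lower, 5-week Cre CD229pos against Clec7apos cells, -0.49 ± 0.14). Its log2 fold change in 5-week Cre Clec7apos against Clec7aneg cells was -0.02 ± 0.24 with the covariate and 1.98 without it. Folr2 was called in 15 comparisons without the covariate (7 higher, 8 lower) and in 13 with it (9 higher, 4 lower). Its CD229 or Clec7a steps held at 1.79 ± 0.22 in 4-week WT, 1.65 ± 0.27 in 4-week Trem2KO, 1.84 ± 0.24 in 5-week Cre and 1.32 ± 0.25 in 6-week Cre mice. Ms4a7 was called in 9 without the covariate (6 higher, 3 lower) and in 7 with it (6 higher, 1 lower). Without the covariate its step into the CD11cpos gate was called at 5 weeks alone. With the covariate that step was called in all 3 Cre or WT experiments, at 2.00 ± 0.33 at 4 weeks, 1.15 ± 0.20 at 5 weeks and 1.31 ± 0.35 at 6 weeks. In Mef2aKO against Cre cells Ms4a7 was then higher in CD229pos (1.06 ± 0.28) and CD11cpos cells (1.16 ± 0.19), and lower at baseline (-1.87 ± 0.45). Pf4 was called in 7 without the covariate (3 higher, 4 lower) and in 5 with it (1 higher, 4 lower), among them Trem2KO against WT CD229neg (-2.22 ± 0.71) and CD229pos cells (-1.70 ± 0.35). In the whole 5-week population the covariate left 1 residual degree of freedom, and no member was called there. The 4 covariate genes were chosen with their values seen, and Mrc1 had within-group r of 0.86 to 0.92 with them. Its loss of calls is therefore in part built into that choice and is no test of Mrc1 against Folr2 and Ms4a7. The covariate is itself measured with counting error and differs between groups, so the fit cannot separate cells of another type from microglia that express all 5 genes together.

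**Figure D4:**
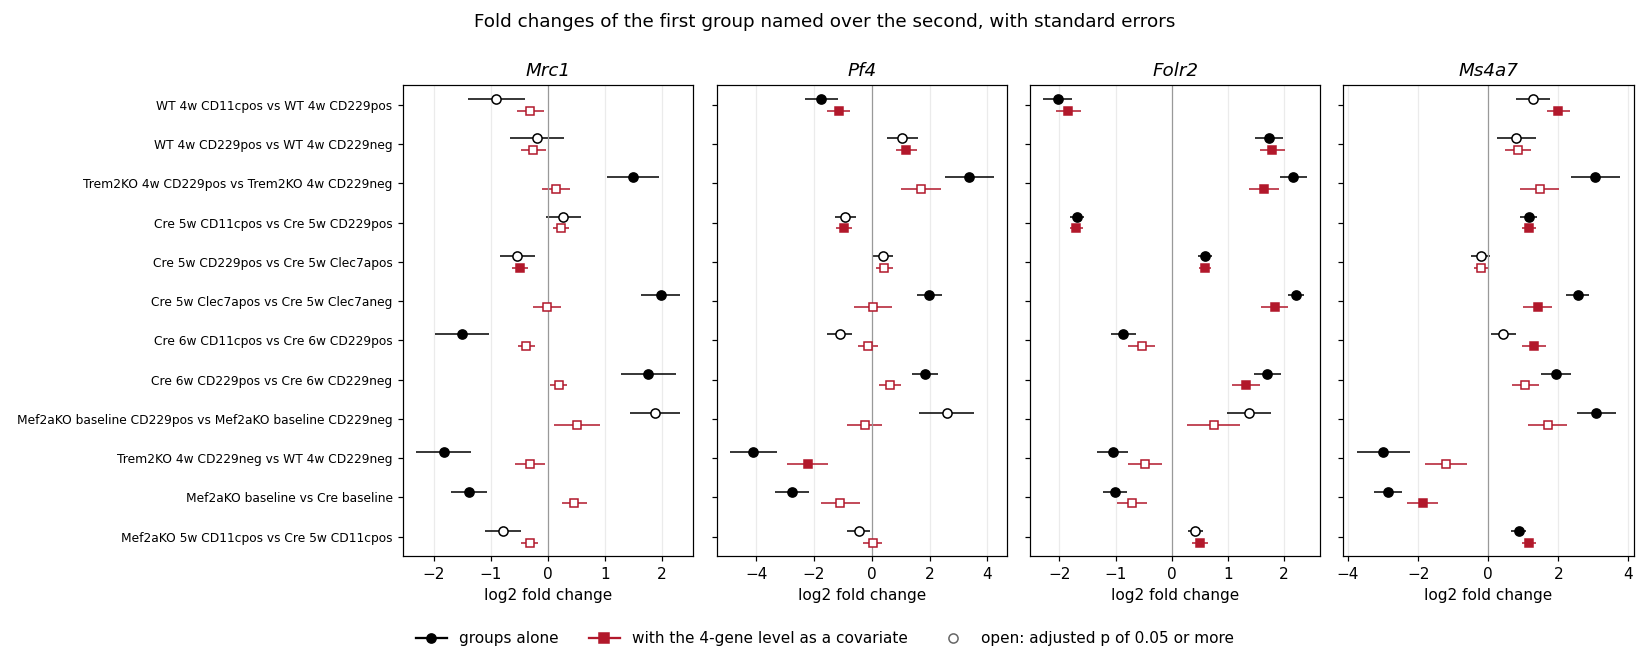
Log2 fold changes of Mrc1, Pf4, Folr2 and Ms4a7, the first group named over the second, with standard errors as bars, fitted from the groups alone (black circles) and with the 4-gene level as a covariate (red squares), open where the adjusted p was 0.05 or more. Mrc1 moves towards 0 with the covariate in most comparisons, where the covariate genes were chosen with their values seen and Mrc1 varied with them. Folr2 keeps its CD229 and Clec7a steps under cuprizone. The step of Ms4a7 into CD11cpos cells is called in both fits at 5 weeks, and only with the covariate at 4 and 6 weeks. Calls are shown without the share of all genes called in the covariate fits.

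A longer list of 25 other border macrophage genes, chosen with earlier results of these data known, was counted in the same fits. In 5-week Cre Clec7apos against Clec7aneg cells 14 of 23 tested were higher and 4 lower (median log2 fold change 1.38, against 0.00 over all genes, of which 20.9% were higher), led by Colec12 (a scavenger collectin, 2.7 ± 0.14, edgeR adjusted p = 3.98e-16) and Siglec1 (a sialic acid receptor, 1.66 ± 0.16), with Slc40a1 (the iron exporter) lower at -0.75 ± 0.06. In 6-week Cre CD229pos against CD229neg cells 11 of 25 were higher, against 10.7% of all genes, and 2 lower (median 1.44), with Colec12 at 2.66 ± 0.26, Siglec1 at 1.86 ± 0.19, Cd36 at 2.02 ± 0.30 and Dab2 at 1.4 ± 0.25. In Trem2KO against WT CD229neg cells 12 of 20 were lower, against 13.1% of all genes, and 2 higher (median -1.82), with Colec12 at -6.74 ± 0.47 and Siglec1 at -2.71 ± 0.26. In Mef2aKO against Cre baseline cells 9 of 23 were lower, against 2.08% of all genes, and 0 higher (median -1.43), led by Cd36 (-2.69 ± 0.46), Clec12a (-3.54 ± 0.61), Siglec1 (-1.12 ± 0.23) and Clec10a (-3.54 ± 0.79). In 5-week Cre CD11cpos against CD229pos cells 3 of 23 were higher and 3 lower (median 0.17), where 14.1% of all genes were called in either direction.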

How the data were processed

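Strand-specific libraries of polyadenylated RNA from sorted microglia were counted per gene. The 6 deposited tables used hold the raw read counts of the authors, 1 RefSeq transcript per gene. The build was mm10, and HOMER 4.11, STAR 2.7.0f, DESeq2 and fastp 0.20.0 are listed without roles, per the submitters' processing notes. Counts of libraries shared between tables were identical for the 8 genes. Replicate pairs of a group differed by 1.55 to 15.4 times counting noise, so each library was kept as its own replicate.

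CPM here are counts scaled to a library total of 1000000 over all genes. In R 4.3.3, edgeR 4.0.16 gave a quasi-likelihood F test for each of 5 experiments (TMM factors, filterByExpr, 1 mean per group), with Benjamini-Hochberg adjustment over all genes and a threshold of 0.05. Residual degrees of freedom were 16 (4 weeks), 19 (5 weeks), 7 (baseline gates), 15 (6 weeks) and 2 (whole population). SE is the log2 fold change divided by the root of F. In the 4-week experiment, in 2 tables, 24910 genes were joined and 214 left out. Pseudocounts are 1 CPM for correlations. The fitting code was tested on simulated data.

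All 8 members are named. The other named genes are the 3 most like each member (mean of at least 1 CPM, no predicted genes, Riken clones or members) and up to 4 called genes of the longer border list with the smallest adjusted p per comparison described. Members and lists were chosen with earlier results of these data known. Same-numbered libraries of the 6-week Cre CD229 step had residual correlations of 0.17 to 0.29, all over 0.1, as the only such step of 22 with 3 or more pairs. Alternatives were RLE size factors, no filter, DESeq2 1.42.0, compared groups only, a replicate block, the PE150 tag of 17 titles as a covariate, each library left out and, chosen after seeing the data, the 4-gene covariate.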

Additional observations from a re-analysis of the deposited data

Results flagged for a closer look

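Only the Trem2KO CD229neg and CD229pos groups at 4 weeks have 4 libraries, so a single library could be tested for standing apart in 16 sets of values (8 genes in 2 groups). 1 stood apart: Cd163 in replicate 1 of Trem2KO CD229pos, at 10.5 CPM against 4.97, 4.75 and 4.99 CPM in the other libraries. The same library had the highest Folr2 (25.2 CPM) and F13a1 (14.6 CPM) of the group. Chance flags about 1 in 20 such sets.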

How the results depend on the processing

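Counts here are of the 8 members called. RLE size factors and the PE150 covariate moved none of them by over 1.5 times. Without the low-count filter, the WT CD229 step had 2 called, the WT CD11c step 7, Trem2KO CD229neg against baseline 6, 5-week Cre CD229pos against Clec7apos 2, Mef2aKO against Cre 6 in Clec7aneg and 4 in CD11cpos, the Mef2aKO baseline gates 7, 6-week Cre CD229neg against baseline 1, the 6-week CD11c step 7, Egr2KO against Cre 6 at baseline, 4 in CD229pos, 6 in CD11cpos and 4 in the whole population, and the Trem2KO interaction 7. With DESeq2 the WT CD11c step had 1, Trem2KO against WT CD229pos 0, Mef2aKO against Cre Clec7aneg 5, the 6-week CD11c step 1 and the whole population 1. In fits of the compared groups only, the WT CD229 step had 2, the WT CD11c step 4, Trem2KO CD229neg against baseline 2, Mef2aKO against Cre 1 at baseline, 4 in Clec7aneg and 4 in CD11cpos, the Mef2aKO baseline gates 2, the 6-week CD11c step 0, Egr2KO against Cre 1 in CD229neg and 1 in CD11cpos, and the interaction 5. With the replicate block added to those fits, the WT CD229 step had 5, Trem2KO CD229neg against baseline 2, the 5-week CD229 step 2 and CD11c step 4. Mef2aKO against Cre had 0 at baseline, 3 in Clec7aneg and 6 in CD11cpos, and the Mef2aKO baseline gates 8. The 6-week CD11c step had 1. Egr2KO against Cre had 4 at baseline, 1 in CD229neg, 4 in CD229pos, 6 in CD11cpos and 4 in the whole population. The interaction had 7. Residual correlations of same-numbered libraries were 0.07 to 0.20 in the WT and 0.07 to 0.16 in the Trem2KO CD229 step. The labels do not say whether same-numbered libraries came from one pool, and the main fits do not pair them. The causes were not tested, and these member counts are given without the share of all genes called in the same fit. Changes in the members can therefore not be told from a general change in the number of calls. The number of all genes called moved by over 1.5 times in 0 of 27 comparisons with RLE, 4 of 27 with DESeq2, 7 of 27 with no filter, 5 of 8 with the PE150 covariate, 11 of 27 with the 4-gene covariate, 12 of 27 with the block and 46 of 170 fits without 1 library; in the 6-week CD229 step 2234 genes were higher with the block, against 1407 without.

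Leaving out 1 library gave 1 to 3 called in the WT CD229 step, 1 to 2 in the WT CD11c step, 1 to 8 for Trem2KO against WT CD229neg and 0 to 2 for CD229pos. For Mef2aKO against Cre it gave 1 to 2 in Clec7aneg, 3 to 5 in Clec7apos, 2 to 4 in CD229pos and 0 to 1 in CD11cpos, with 0 in the baseline gates. It gave 4 to 8 in the 6-week CD229 step, 0 to 7 in the 6-week CD11c step, 0 to 3 for Egr2KO baseline and 0 to 4 for the interaction. The number of all genes called also moved when 1 library was left out. It ran from 1373 to 2380 for Trem2KO against WT CD229neg and from 1268 to 2404 in the 6-week CD229 step. In the 6-week CD11c step it was 1512 to 2639, and 1405 to 2064 for the interaction. With the 4-gene covariate 19 of 108 fold changes changed sign, 17 of them not called without it. The 2 called ones were Mrc1 in 5-week Cre Clec7apos against Clec7aneg (-0.02) and Mef2aKO against Cre baseline (0.46). Levels scaled by TMM moved none of 224 group means by over 1 SD. Low counts limit Lyve1, which had no read in 7 libraries.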
